A study of Homo sapiens with 11 samples.

Results

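The ZNF genes are the human genes named ZNF and a number, which encode mostly proteins with C2H2 zinc fingers. The genes described here are those that the array annotation names this way, without a fixed list of genes of the zinc finger cluster in band 19q13.43. That list of symbols is what the 19q13.43 cluster means below. Position was not used, so other genes of that band may be among those described. The genes described were chosen by name. A gene was tested when its probe had a detection p under 0.01 on at least 5 of 11 arrays. Of 391 such genes with a probe on the array, 245 passed this filter, among 9653 genes tested in all. Of the 146 that did not pass, 90 were detected on no array and 56 on 1 to 4 arrays, and they are not described further. The 245 genes were measured with 293 probes that passed.

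The data came from HEK293T cells, a human embryonic kidney line, transfected with wild-type DFNA5 (wtDFNA5, 5 arrays) or with a mutant form of it (mutDFNA5, 6 arrays) that causes dominant hearing loss. The gene, today called GSDME, encodes gasdermin E, and the comparison asked which transcripts differ when the mutant protein is expressed in place of the wild type. The labels and the study's methods give both 6 h after transfection for the harvest and 12 h for the RNA extraction. All arrays carried a DFNA5 construct introduced with lipofectamine, no array of cells with an empty vector was analysed here, and the sample titles call the mutant samples KO although no gene was deleted as far as the labels say.

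Most of these proteins read DNA through an array of zinc fingers, and the largest class also carries a KRAB domain. KRAB binds the scaffold protein TRIM28 (KAP1), which brings in SETDB1, a histone H3 lysine methyltransferase, and HP1 proteins, so that chromatin at the bound site is silenced. Many KRAB zinc finger genes arose by tandem duplication, lie in clusters on chromosome 19, and bind retrotransposons, while members without KRAB include transcriptional activators, subunits of chromatin complexes and proteins that bind RNA.

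Between 14029 and 15443 of 42000 probes were detected per array, and 219 to 241 of the 245 ZNF genes. Array medians before normalization ran from 6.90 to 7.33 on the log2 scale, lowest in wtDFNA5 replicate 4. The single GSDME probe gave 8.02 ± 0.22 (SD, n = 5) with wtDFNA5 and 8.05 ± 0.20 (n = 6) with mutDFNA5, a log2 difference of 0.03 (95% interval -0.19 to 0.25, limma adjusted p = 0.908), so it does not separate the labels. Whether the GSDME probe reads the transfected constructs was not tested, so its values cannot be read as equal expression of both constructs. Of 9 HEK293T marker genes on the array 5 were detected on all arrays and 3 on no array. Of 15 markers of other cell types none was detected on all arrays and 12 on no array, while the endothelial marker PECAM1 was detected on 9 arrays. In RNA pooled from a dish, fewer cells with a transcript and less of it per cell cannot be told apart.

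Outside the 19q13.43 cluster, more ZNF genes were called lower than higher with mutDFNA5. Of the 245 genes, 23 were significantly down-regulated (9.39%) and 2 were significantly up-regulated (0.816%) at a limma adjusted p under 0.05. Over all 9653 genes tested, 4.92% were called lower, 4.05% higher and 8.97% in either direction. Whether the shares of the ZNF genes differ from these was not tested. The median log2 change, mutDFNA5 minus wtDFNA5, was -0.07 (interquartile range -0.16 to 0.03) over the ZNF genes and -0.01 over all genes. The share with a value below 0 was 67.8% (166 of 245) against 51.5% of all genes. Without background correction the called falls ranged from 1.18-fold to 1.42-fold, and only ZNF326 changed by at least 0.5 on the log2 scale. With background correction (normexp) the same 23 genes ranged from -0.35 to -1.05 on that scale, and 12 of them were at -0.5 or lower, among them ZNF433 (-1.05), ZNF79 (-0.82), ZNF101 (-0.82), ZNF34 (-0.76) and ZNF350 (-0.73). These named genes had mean log2 signals below 8, where normexp changes of all genes ran from -1.42 to 2.16. ZNF433, ZNF101 and ZNF350 were not detected on every mutDFNA5 array, so the sizes of their changes are uncertain. For 17 of the 245 genes every mutDFNA5 array lay below every wtDFNA5 array, as for 3.84% of all genes, and for 2 every mutDFNA5 array lay above, as for 2.78% of all genes.

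**Figure D1:**
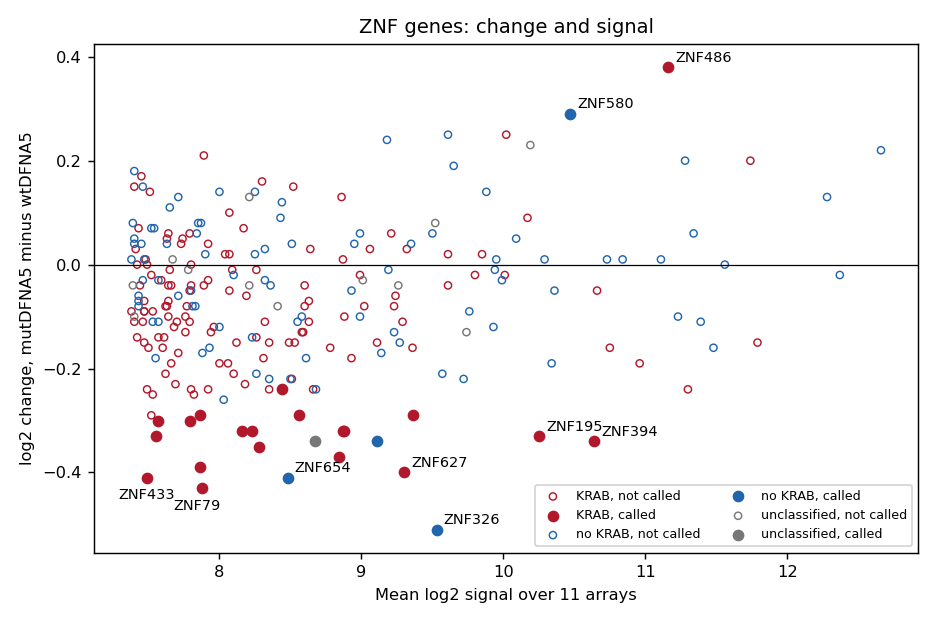
Log2 change (mutDFNA5 minus wtDFNA5) against the mean log2 signal over 11 arrays for each of the 245 ZNF genes. Filled points are the 23 genes called lower and the 2 called higher, and colour gives the KRAB class.

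Dim probes understate a change, because no background was subtracted. The ZNF genes were dim, with a median log2 signal of 8.23 against 9.16 over all genes. Among ZNF genes with a mean signal below 8, 7 of 104 were called lower (6.73%, against 2.72% of all genes in that range). Between 8 and 9 the count was 10 of 73 (13.7%, against 5.79%), and at 9 and above it was 6 of 68 (8.82%, against 5.52%). The share of ZNF genes called lower was above that of all genes in each range with quantile normalization, but under median scaling none of the 73 genes between 8 and 9 was called lower, beside 0.583% of all genes in that range. With normexp, 22 ZNF genes were lower and none higher, beside 3.42% and 2.81% of all genes. Scaling arrays to a common median instead of quantile normalization moved the median change of all genes to 0.07 and that of the ZNF genes to -0.01, with 52.2% of ZNF genes and 31.9% of all genes below 0. Under that scaling 3 ZNF genes were called lower (ZNF79, ZNF326 and ZNF433), beside 0.559% of all genes, and ZNF486 alone higher, beside 2.8%. Of these, ZNF433 passed the detection filter through the wtDFNA5 arrays.

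Most of the genes called lower were KRAB genes, and the difference between the classes was not tested. KRAB status was assigned from general knowledge of the family because protein sequences were not given, and 13 genes were left unclassified. Of 140 KRAB genes, 19 were down-regulated (13.6%) and 1 was up-regulated, beside 4.92% and 4.05% of all genes. Their median change was -0.10 (-0.05 under median scaling), and 108 (77.1%) had a value below 0, beside 51.5% of all genes. Of 92 genes without KRAB, 3 were down-regulated (3.26%, against 4.92% of all genes) and 1 was up-regulated. Their median was -0.01, which turned to 0.06 under median scaling. The shares called lower were close under median scaling, with 2 of 140 KRAB genes (1.43%) and 1 of 92 genes without KRAB (1.09%). Over all genes that share was 0.559%. Median signals were 8.05 for KRAB genes and 8.49 for the others, so the KRAB genes were also somewhat dimmer. The remaining called gene, ZNF16, was among the unclassified. For comparison, the 24 tested genes of the 19q13.43 cluster had 9 falls (37.5%), no rise and a median of -0.17. Under median scaling 2 of these 24 were called lower (8.33%), and their median was -0.12.

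**Figure D2:**
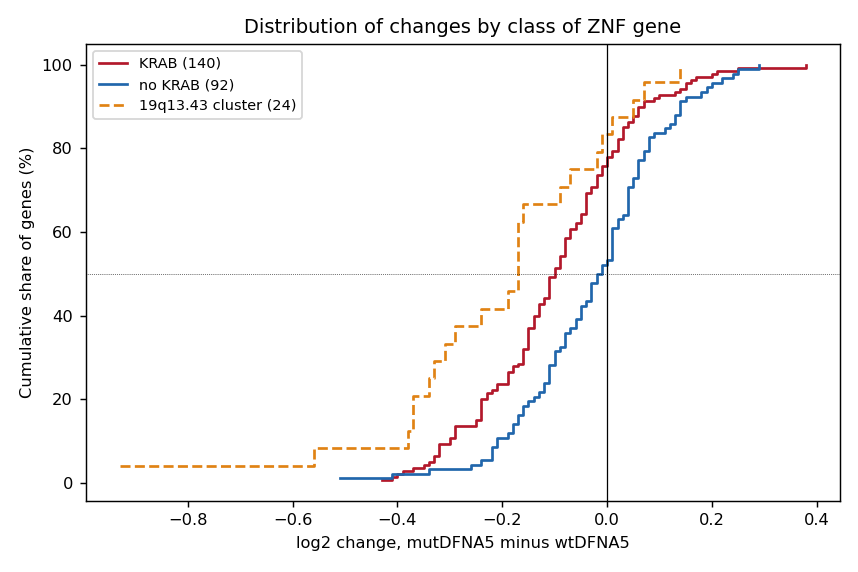
Cumulative share of genes (percent) by log2 change, mutDFNA5 minus wtDFNA5, for 140 KRAB genes, 92 genes without KRAB and, dashed, the 24 genes of the 19q13.43 cluster. The KRAB curve crosses 50% at -0.10 and the curve without KRAB at -0.01.

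The same shift was seen on every array of the mutant group. Relative to the wtDFNA5 mean of each gene, the median over KRAB genes lay between -0.12 and -0.08 on the 6 mutDFNA5 arrays, and between -0.01 and 0.02 on the 5 wtDFNA5 arrays. No mutDFNA5 array overlapped the wtDFNA5 arrays in this value. The wtDFNA5 arrays make up their own reference, which holds them near 0, so this separation is not independent of the median change given above. Over genes without KRAB, the mutDFNA5 arrays ran from -0.04 to 0.01 and the wtDFNA5 arrays from -0.04 to 0.03, so the groups overlapped. Quantile normalization holds the median over all genes nearly fixed, here between -0.02 and 0.01 on all arrays, so these values are relative to it. Under median scaling the median change was 0.07 over all genes and -0.05 over KRAB genes. The spread within a group was like that of other genes, with a median SD of 0.129 with wtDFNA5 and 0.132 with mutDFNA5, against 0.132 and 0.126 over all genes.

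**Figure D3:**
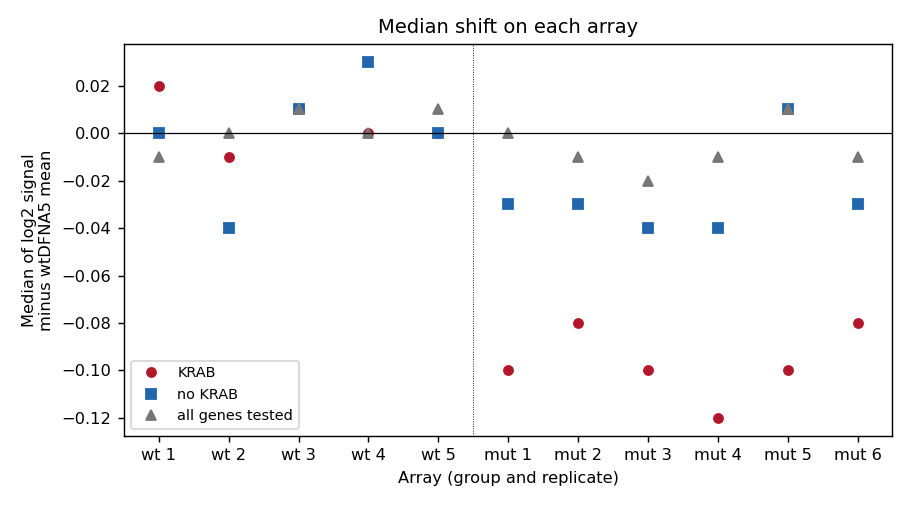
For each array, the median over genes of the log2 signal minus the gene's wtDFNA5 mean, for KRAB genes, genes without KRAB and all genes tested. KRAB medians are -0.12 to -0.08 on the mutDFNA5 arrays and -0.01 to 0.02 on the wtDFNA5 arrays.

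Among genes without KRAB, ZNF326 (chromosome 1) fell most. ZNF326 is the zinc finger subunit of the DBIRD complex, which links RNA polymerase II to the splicing of alternative exons. On the log2 scale its signal was 9.86, 9.86, 9.68, 9.93 and 9.69 on the wtDFNA5 arrays, and on the mutDFNA5 arrays the lowest was 8.92, the median 9.31 and the highest 9.63. All mutDFNA5 arrays were below all wtDFNA5 arrays, the highest by a narrow margin. The means were 9.80 ± 0.11 (SD, n = 5) and 9.30 ± 0.23 (n = 6), a log2 change of -0.51 (SE 0.0965, limma adjusted p = 0.00213). Its other tested probe gave -0.23 (adjusted p = 0.196), the same direction without a call.

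ZNF654 (chromosome 3) and ZNF362 (chromosome 1) were the other down-regulated genes without KRAB. For ZNF654 the wtDFNA5 signals were 8.91, 8.64, 8.81, 8.78 and 8.38, and the mutDFNA5 signals had a lowest value of 7.90, a median of 8.33 and a highest of 8.49. The groups overlapped, with 3 of 6 mutDFNA5 arrays below the wtDFNA5 range. The change was -0.41 (SE 0.103, adjusted p = 0.0155), and its 3 other probes gave -0.18 to -0.22 and were not called. ZNF362, a relative of the activator ZNF384, had 9.28, 9.16, 9.46, 9.32 and 9.29 with wtDFNA5 and a lowest of 8.86, a median of 8.96 and a highest of 9.05 with mutDFNA5. Here the groups were separate, and the fall was -0.34 (SE 0.0740, adjusted p = 0.00605).

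The KRAB gene with the largest change was ZNF79 (chromosome 9). Its wtDFNA5 signals were 8.30, 8.11, 8.03, 8.19 and 7.96, and the mutDFNA5 signals ran from 7.55 through a median of 7.66 to 7.96. The highest mutDFNA5 array reached the lowest wtDFNA5 array, and the other 5 were below the wtDFNA5 range. The fall was -0.43 (SE 0.0869, adjusted p = 0.00339). ZNF613 (chromosome 19) had signals of 8.84, 8.99, 9.18, 9.01 and 9.17 with wtDFNA5, and with mutDFNA5 a lowest of 8.51, a median of 8.70 and a highest of 8.79. Its groups did not overlap, and it fell by 0.37 (SE 0.0806, adjusted p = 0.00594).

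ZNF213 (chromosome 16) and ZNF394 (chromosome 7) encode proteins that carry a SCAN domain, used for pairing with other SCAN proteins, beside KRAB. ZNF213 was 8.31, 8.47, 8.47, 8.65 and 8.48 with wtDFNA5, and 8.01 at lowest, 8.11 at the median and 8.29 at highest with mutDFNA5. The groups were separate by a small gap and the change was -0.35 (SE 0.0773, adjusted p = 0.00629). ZNF394 changed by -0.34 (SE 0.0996, adjusted p = 0.0375) with 5 of 6 mutDFNA5 arrays below the wtDFNA5 range, and its second probe gave -0.09 (adjusted p = 0.528). ZNF350 (chromosome 19) encodes ZBRK1, which represses GADD45A together with BRCA1. Its signals were 7.77, 7.68, 7.62, 7.88 and 7.75 with wtDFNA5 and 7.37 to 7.50 (median 7.44) with mutDFNA5, without overlap. It fell by 0.30 (SE 0.0721, adjusted p = 0.0112), and its probe was above the detection limit on every wtDFNA5 array and on 4 of 6 mutDFNA5 arrays.

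**Figure D4:**
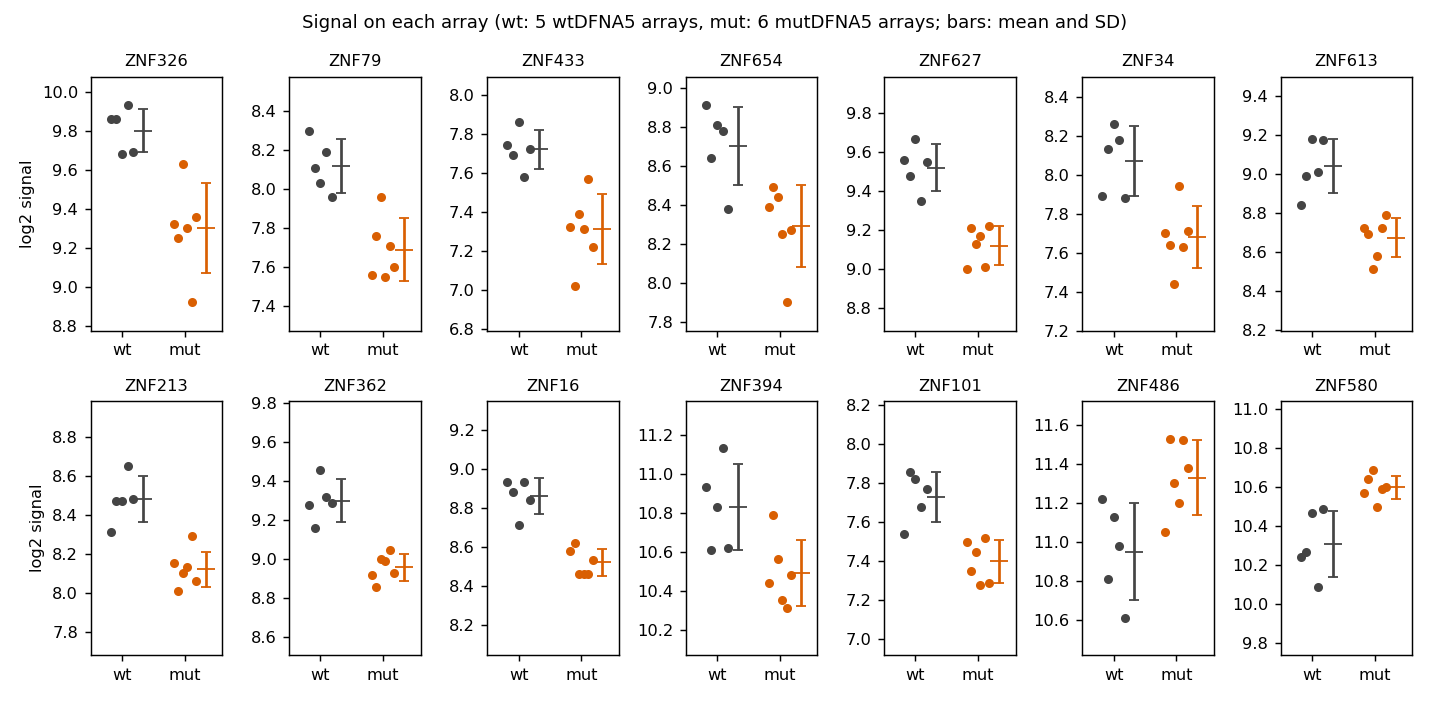
Log2 signal on each array for the 12 largest falls and the 2 rises among the ZNF genes. Points are arrays (5 wtDFNA5, 6 mutDFNA5), bars give mean and SD, and each panel spans the same range of log2 units around its own centre.

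The remaining down-regulated KRAB genes away from the chromosome 19 and chromosome 8 runs described next changed by similar amounts. They were ZNF101 (-0.33), ZNF227 (-0.29) and ZNF235 (-0.29) on chromosome 19, ZNF195 (-0.33) on chromosome 11, ZNF184 (-0.32) on chromosome 6, ZNF620 (-0.30) on chromosome 3 and ZNF212 (-0.29) on chromosome 7. Adjusted p-values ran from 0.00914 for ZNF195 to 0.0336 for ZNF620. ZNF101 was at 7.73 ± 0.13 with wtDFNA5 (SD, n = 5) and 7.40 ± 0.11 with mutDFNA5 (n = 6), and it was detected on all wtDFNA5 arrays but on 3 of 6 mutDFNA5 arrays. Over the 23 down-regulated genes, 20 were detected on all arrays and 13 had all mutDFNA5 arrays below the wtDFNA5 range. Of all genes tested, 3.84% had their groups apart in this way. The 23 genes were called on these same arrays, so the count of 13 is not independent of the calls.

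The rises were ZNF486 and ZNF580, both on chromosome 19. ZNF486 is a KRAB gene of the primate-expanded family around ZNF91, and ZNF580 is a small protein without KRAB that has been studied in endothelial cells. ZNF486 had 11.22, 10.81, 11.13, 10.98 and 10.61 with wtDFNA5, and with mutDFNA5 a lowest of 11.05, a median of 11.34 and a highest of 11.53. The groups overlapped, with 4 of 6 mutDFNA5 arrays above the wtDFNA5 range. The change was 0.38 (SE 0.105, adjusted p = 0.0270). ZNF580 had 10.24, 10.27, 10.47, 10.09 and 10.49, and a lowest of 10.50, a median of 10.59 and a highest of 10.69 with mutDFNA5. Its groups met without overlap, and the rise was 0.29 (SE 0.0806, adjusted p = 0.0287), while its second and dimmer probe gave 0.13 (adjusted p = 0.418). Neither rise kept its call with background correction, where the adjusted p was 0.0921 for ZNF486 and 0.0611 for ZNF580. Leaving out 1 array ended the call of ZNF486 for wtDFNA5 replicates 2 and 5 and mutDFNA5 replicates 2, 5 and 6, and that of ZNF580 for wtDFNA5 replicates 1, 2 and 4 and mutDFNA5 replicates 2, 3 and 6.

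Some down-regulated ZNF genes were neighbours. Genes were placed by their RefSeq order in assembly GRCh38.p14, and a run was a stretch of ZNF genes with at most 10 protein-coding genes between neighbours and at least 5 tested members. On chromosome 19 the run from ZNF653 to ZNF791 held 10 tested genes, of which 5 were down-regulated, namely ZNF627, ZNF823, ZNF700, ZNF433 and ZNF443, and 8 had a value below 0 (median -0.23). All 5 are KRAB genes. On chromosome 8 the run from ZNF251 to ZNF16 held 5 tested genes with 3 falls, ZNF34, ZNF250 and ZNF16, and all 5 had values below 0 (median -0.32), or 4 of 5 under median scaling. Over all genes tested, 4.92% were called lower. Of the falls in these 2 runs, only ZNF433 kept its call under median scaling. Adjacent tested genes were both down-regulated in 4 runs, these 2 and a further 2 on chromosome 19, where ZNF227 lay beside ZNF235 and ZNF613 beside ZNF350. No run other than the first 2 held more than 2 falls among its 5 to 17 tested genes. In the run from ZNF565 to ZNF573, 12 tested genes of chromosome 19 gave no call in either direction and a median of -0.02. The 94 ZNF genes on chromosome 19 had 10 falls (10.6%), and the 151 on other chromosomes had 13 (8.61%). Among KRAB genes alone the shares were 13.9% of 72 on chromosome 19 and 13.2% of 68 elsewhere.

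In the chromosome 19 run, ZNF433 passed the detection filter through the wtDFNA5 arrays. It was at 7.74, 7.69, 7.86, 7.58 and 7.72 with wtDFNA5, and at a lowest of 7.02, a median of 7.32 and a highest of 7.57 with mutDFNA5. The groups did not overlap, but the probe was detected on only 1 of 6 mutDFNA5 arrays and on every wtDFNA5 array, so its mutDFNA5 level lay near background and the size of its change is uncertain. The fitted change was -0.41 (SE 0.0872, adjusted p = 0.00484), and with background correction -1.05 (adjusted p = 0.0137). ZNF627 was at 9.56, 9.48, 9.67, 9.35 and 9.55, and at a lowest of 9.0, a median of 9.15 and a highest of 9.22 with mutDFNA5. Its groups were well apart, and the change was -0.40 (SE 0.0776, adjusted p = 0.00250), with -0.25 (adjusted p = 0.0777) from a second probe.

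The 3 other falls in that run were smaller. ZNF700 had 8.94, 8.89, 9.29, 9.20 and 8.92 with wtDFNA5 and 8.67 to 8.83 (median 8.73) with mutDFNA5, and ZNF443 had 8.47, 8.58, 8.74, 8.54 and 8.54 against 8.28 to 8.38 (median 8.34). Neither gene's groups overlapped, and the 6 mutDFNA5 arrays lay close together, with SDs of 0.05 and 0.04. Their changes were -0.32 (adjusted p = 0.0183) and -0.24 (adjusted p = 0.0389), and the second ZNF700 probe gave -0.12 (adjusted p = 0.434). ZNF823 changed by -0.32 (adjusted p = 0.0211), with 4 of 6 mutDFNA5 arrays below the wtDFNA5 range. The run also held ZNF653 (-0.21, adjusted p = 0.0928), ZNF20 (-0.16, adjusted p = 0.230), ZNF564 (-0.05), ZNF69 (0.02) and ZNF791 (0.06), none of which was called. Many KRAB zinc finger genes arose by tandem duplication, so KRAB genes of a run can be alike in sequence. Probe sequences were not given, and the part of shared hybridisation in these values was not tested.

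The sequences upstream of the genes of the chromosome 19 run are shown because they share a short block. These are the 250 bases before the annotated start, from RefSeq in assembly GRCh38.p14, with CCAAT boxes (CCAAT or its reverse complement ATTGG) and GC boxes (GGGCGG or CCGCCC) in capitals. CCAAT boxes bind the NF-Y complex and GC boxes bind SP1 and related factors. The first 5 genes were down-regulated and ZNF20 was not called.
ZNF627 (chr19:11597233-11597482, plus strand): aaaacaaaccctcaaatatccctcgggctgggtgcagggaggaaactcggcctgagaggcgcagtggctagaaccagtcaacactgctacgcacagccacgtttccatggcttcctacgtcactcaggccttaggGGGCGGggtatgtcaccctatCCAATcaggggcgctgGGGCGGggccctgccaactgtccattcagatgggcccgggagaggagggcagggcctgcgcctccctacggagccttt
ZNF823 (chr19:11738947-11739196, minus strand): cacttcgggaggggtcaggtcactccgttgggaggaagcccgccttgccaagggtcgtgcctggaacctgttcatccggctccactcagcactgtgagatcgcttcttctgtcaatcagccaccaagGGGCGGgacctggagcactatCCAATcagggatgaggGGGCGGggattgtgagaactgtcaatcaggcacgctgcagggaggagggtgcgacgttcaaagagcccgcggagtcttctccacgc
ZNF700 (chr19:11924857-11925106, plus strand): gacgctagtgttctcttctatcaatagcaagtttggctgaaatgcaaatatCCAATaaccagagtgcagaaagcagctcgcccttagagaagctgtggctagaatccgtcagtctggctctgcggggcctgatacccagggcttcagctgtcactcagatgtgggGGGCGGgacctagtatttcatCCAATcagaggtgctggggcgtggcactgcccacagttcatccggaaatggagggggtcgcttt
ZNF433 (chr19:12035680-12035929, minus strand): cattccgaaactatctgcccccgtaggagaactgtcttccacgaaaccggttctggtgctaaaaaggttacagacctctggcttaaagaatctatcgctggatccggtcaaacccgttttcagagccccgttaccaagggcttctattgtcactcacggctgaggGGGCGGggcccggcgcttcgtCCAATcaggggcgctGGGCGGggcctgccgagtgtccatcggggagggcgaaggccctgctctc
ZNF443 (chr19:12441022-12441271, minus strand): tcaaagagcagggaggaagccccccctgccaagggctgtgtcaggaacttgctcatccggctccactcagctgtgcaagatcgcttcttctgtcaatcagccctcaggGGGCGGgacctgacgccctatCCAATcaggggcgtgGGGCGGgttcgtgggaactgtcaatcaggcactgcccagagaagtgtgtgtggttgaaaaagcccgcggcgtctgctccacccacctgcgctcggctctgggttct
ZNF20 (chr19:12140351-12140600, minus strand): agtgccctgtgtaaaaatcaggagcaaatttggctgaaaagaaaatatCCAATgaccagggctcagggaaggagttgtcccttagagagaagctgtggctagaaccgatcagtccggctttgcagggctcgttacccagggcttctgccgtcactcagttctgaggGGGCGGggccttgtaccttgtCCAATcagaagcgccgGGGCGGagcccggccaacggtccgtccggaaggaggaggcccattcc

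Each of these 6 sequences held a CCAAT box extended to CCAATCAG with a GC box close by. In ZNF433 and ZNF700 the extended box began 64 bases before the start, in ZNF20 63 bases before it, and in ZNF627, ZNF823 and ZNF443 94, 102 and 121 bases before it. Of the 10 tested genes of the run, CCAATCAG on either strand was present in 5 of 5 down-regulated genes and in 4 of 5 that were not called, the exception being ZNF653. The block therefore did not separate genes that fell from genes that were not called. CCAATCAG, which was picked after the sequences were seen, occurred in 3.98% of 27305 promoters, in 5.50% of 8016 tested genes, in 16.4% of 213 ZNF genes and in 24.2% of 124 KRAB genes with a sequence in the table. Both a CCAAT box and a GC box were present in 13.8% of all promoters, 26.0% of tested genes, 30.5% of the ZNF genes and 9 of 18 down-regulated ZNF genes with a sequence. The EGR motif GCGTGGGCG (either strand) was in none of those 18 and in 1.31% of tested genes, and the ETS motif CCGGAAGT (either strand) was in 3 of 18 and in 7.92% of tested genes. GC boxes and the EGR motif overlap in part of their letters, and a match is a description of the letters only.

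On chromosome 8, ZNF34, ZNF250 and ZNF16 changed by close amounts. ZNF16, which has been studied in blood cell differentiation, was at 8.93, 8.88, 8.71, 8.93 and 8.84 with wtDFNA5 and at a lowest of 8.46, a median of 8.49 and a highest of 8.62 with mutDFNA5. Its groups did not overlap, and the change was -0.34 (SE 0.0722, adjusted p = 0.00524), with -0.27 (adjusted p = 0.0656) from its second probe. ZNF34 was at 7.89, 8.13, 8.26, 8.18 and 7.88 and at a lowest of 7.44, a median of 7.67 and a highest of 7.94. One mutDFNA5 array of ZNF34 lay within the wtDFNA5 range, and the change was -0.39 (SE 0.0920, adjusted p = 0.0112). ZNF250 changed by -0.32 (SE 0.0829, adjusted p = 0.0186), with 5 of 6 mutDFNA5 arrays below the wtDFNA5 range. The neighbours ZNF7 (-0.08) and ZNF251 (-0.07) were not called.

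**Figure D5:**
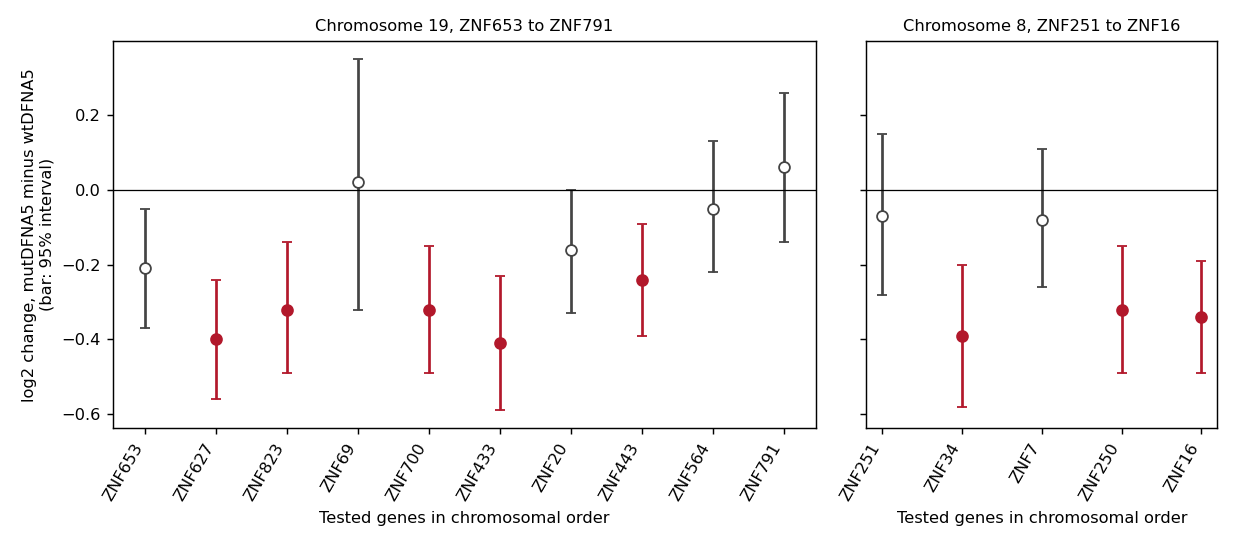
Log2 change, mutDFNA5 minus wtDFNA5, with its 95% interval for the tested ZNF genes of the runs on chromosome 19 (left, 10 genes) and chromosome 8 (right, 5 genes), in chromosomal order. Filled red points are the 5 and 3 genes called lower.

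Several genes had probes that disagreed. Of 44 ZNF genes with several tested probes, 35 had no called probe, none had all probes called, and 9 had probes that differed in the call, always with the same sign. The gene value above is that of the brightest probe, and 18 of the 25 called genes had only 1 tested probe. ZNF205, a KRAB gene, is among the down-regulated genes that the study lists, and the study does not name its probe. Its brightest probe here was at 8.23, 7.99, 8.0, 8.24 and 8.03 with wtDFNA5 and 7.96 to 8.21 (median 8.11) with mutDFNA5, a change of -0.01 (adjusted p = 0.972). Its second probe was at 7.99, 7.86, 8.36, 7.88 and 8.09 with wtDFNA5 and at 7.41 to 7.69 (median 7.49) with mutDFNA5. The mean of both probes changed by -0.27 and was called (adjusted p = 0.0131). On the second probe alone the groups were separate and the change was -0.53 (adjusted p = 0.000587), larger than that of any brightest probe of a ZNF gene here. The fall that the study lists for ZNF205 is close in size to that of the second probe, and not to that of the brightest. ZNF3 was not called by its brightest probe (-0.14, adjusted p = 0.302), but its other probes gave -0.29 (adjusted p = 0.0272) and -0.25 (adjusted p = 0.0477). Counting genes with any called probe gave 25 lower and 2 higher. Which transcripts each probe reads was not tested.

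The groups of ZNF genes with other known roles held a single call. The list of RNA-binding, ribosome-linked and spindle proteins had 14 tested genes and 1 fall, ZNF326 (7.14%, against 4.92% of all genes). In that list ZNF207 (BuGZ, which carries BUB3 to kinetochores) gave 0.13 (adjusted p = 0.316) and ZNF598 (a ubiquitin ligase for collided ribosomes) gave 0.01 (adjusted p = 0.961). Of 11 activators of promoters and binders of GC-rich elements, limma called none, beside 8.97% of all genes, and 3 had an unadjusted p under 0.05 (27.3%, against 23.8% of all genes). With so few genes these counts were near the background. ZNF143, which activates snRNA and many mRNA promoters, was at 9.48 ± 0.10 with wtDFNA5 (SD, n = 5) and 9.73 ± 0.16 with mutDFNA5 (n = 6), a difference of 0.25 (adjusted p = 0.0656). Its paralog ZNF76 gave -0.26 (adjusted p = 0.107) and ZNF148 gave -0.21 (adjusted p = 0.132), so the values of the pair ZNF143 and ZNF76 had opposite signs.

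Subunits of corepressor and chromatin complexes also gave no call among 16 tested genes, beside 8.97% of all genes. In this list 2 had an unadjusted p under 0.05 (12.5%, against 23.8% of all genes). Lists this small, here and in the next group, cannot be set apart from the share of all genes. ZNF503, a corepressor of the NET family, was at 12.54 ± 0.23 and 12.76 ± 0.09, a difference of 0.22 (adjusted p = 0.136), and ZNF217, a partner of the CoREST complex, gave 0.12 (adjusted p = 0.494). Of the 6 tested KRAB genes known for binding retrotransposons or imprinted regions none was called, and 1 had an unadjusted p under 0.05 (16.7%), ZNF567 with -0.18 (adjusted p = 0.214). ZNF91, which represses SVA elements, gave -0.04 (adjusted p = 0.821).

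No gene of the machinery that KRAB domains recruit was called by limma, beside 8.97% of all genes. Whether this differs from that share was not tested. Of 27 tested genes of the KRAB corepressor list, 3 had an unadjusted p under 0.05 (11.1%, against 23.8% of all genes), and the median change was 0.02. TRIM28 was at 12.14 ± 0.10 with wtDFNA5 (SD, n = 5) and 12.16 ± 0.19 with mutDFNA5 (n = 6), a difference of 0.02 (adjusted p = 0.937). SETDB1 gave -0.11 (adjusted p = 0.579), and the HP1 genes CBX1, CBX3 and CBX5 gave 0.16, -0.06 and -0.09. SMARCAD1, a chromatin remodeler that binds TRIM28, had the smallest p, at 9.02 ± 0.19 and 9.24 ± 0.08, a difference of 0.22 (adjusted p = 0.111). Without wtDFNA5 replicate 4 its difference was 0.28 and it passed the threshold (adjusted p = 0.0446).

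At the threshold itself, ZNF394 and ZNF443 were just inside it with adjusted p-values of 0.0375 and 0.0389. ZNF816 (-0.24, adjusted p = 0.0526) and ZNF275 (0.23, adjusted p = 0.0590) were just outside. Of the 25 called ZNF genes, 14 kept the call when any 1 array was left out, and none changed sign under any alternative. Leaving out some single array ended the call of the other 11, which were ZNF184, ZNF212, ZNF227, ZNF235, ZNF394, ZNF443, ZNF620, ZNF700, ZNF823, ZNF486 and ZNF580. ZNF79 and ZNF326 kept the call under all 19 alternatives. ZNF433 kept it under each one that tested it, but it passed the detection filter through the wtDFNA5 arrays. The alternative that required detection on all arrays left it out.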

How the data were processed

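Total RNA of transfected HEK293T cells was measured on Illumina HT12 beadchips with 1 array for each sample, and groups and replicate numbers were taken from the labels. The authors deposited log2 signals per probe that were not normalized between arrays, with a detection p-value deposited beside each, and a table of quantile-normalized log2 values. The study's methods name beadarray, quantile normalization after quality control, and limma, without a background correction, and the submitters' processing notes name limma 3.24.4. The methods call the replicates independent biological ones, so the p-values rest on the spread among separate transfections. Depth does not apply to arrays, and the number of arrays limits the precision.

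Quantile normalization was run here in R 4.3.3 (limma 3.58.1), within 0.019 of the authors' table. Probes with a detection p under 0.01 on at least 5 of 11 arrays were kept (14542 of 42000), and named through an annotation of a later HT12 version than the methods name. All 245 symbols matched RefSeq. The brightest probe stood for its gene. The fit was mutDFNA5 minus wtDFNA5, tested two-sided with limma (lmFit, eBayes). Adjusted p-values are Benjamini-Hochberg values over every probe kept, and the fit was tested on simulated data. Changes of dim probes are understated.

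Genes named were the 12 largest rises and falls among called genes, ZNF205, genes whose probes disagree on the call, up to 3 genes per role list (4 for corepressors), and 2 on each side of the threshold. The other called genes, the neighbours of called genes and further examples of the role lists were named after their values were seen, as were the runs of neighbours. The members, gene lists and alternatives were chosen with earlier results of these data known. KRAB and role lists came from general knowledge. Alternatives were the authors' normalized table, normexp background correction (offset 16), scaling to the median, no detection filter, detection on all arrays, a trended and robust prior, a replicate block, the mean of a gene's probes, and leaving out each array.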

Additional observations from a re-analysis of the deposited data

Results flagged for a closer look

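In 66 groups of values of the named genes, a single array stood apart from the rest of its group by Dixon's test in 2, and chance alone flags about 1 in 20 groups. For ZNF620, mutDFNA5 replicate 3 was highest at 7.89 on the log2 scale, while the other mutDFNA5 arrays lay between 7.53 and 7.66. For SMARCAD1, mutDFNA5 replicate 4 was lowest at 9.07, while the others lay between 9.25 and 9.30.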

How the results depend on the processing

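Against 23 lower and 2 higher ZNF genes, median scaling gave 3 and 1, normexp 22 and 0, and no detection filter 17 and 1. For KRAB genes, 19 lower and 1 higher became 2 and 1 under median scaling, and normexp left 0 higher. For genes without KRAB, 3 lower became 1 under median scaling, and 1 higher became 0 under normexp, median scaling and no filter. The median change of -0.07 became -0.11 with normexp, -0.01 with median scaling and -0.04 with no filter. The cause was not tested. The fit with the replicate number as a block gave 15 lower and 0 higher ZNF genes, 11 lower and 0 higher KRAB genes, and 0 higher without KRAB, and 15 of 25 calls held. Deviations of same-numbered arrays had correlations of -0.06 to 0.11, and 1 of 5 wtDFNA5 arrays correlated best with its own number. The labels do not say whether same-numbered arrays were paired, and these correlations do not settle it.

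Leaving out 1 array at a time gave 17 to 23 lower and 0 to 3 higher ZNF genes, 13 to 19 lower and 0 to 2 higher KRAB genes, 3 to 4 lower and 0 to 1 higher genes without KRAB, and 0 to 1 higher corepressor genes, with medians of -0.07 to -0.06. The count of rises was 0 without wtDFNA5 replicate 2, mutDFNA5 replicate 2 or mutDFNA5 replicate 6. ZNF205, at -0.01 by its brightest probe, changed sign under median scaling (0.06) and without wtDFNA5 replicate 1 (0.03), wtDFNA5 replicate 4 (0.03), mutDFNA5 replicate 2 (0.02) or mutDFNA5 replicate 4 (0.01), with a range of -0.03 to 0.03 over all single arrays left out, and was not called in any of these. The authors' normalized table kept all 25 calls. Quantile normalization would remove a shift shared by most transcripts, and signals near background limit what dim probes such as ZNF433 can show.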
